A study of Rattus norvegicus with 4 samples.

Results

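Arhgef28, Znrf3, Ccdc77, Zmat4, Asic2, Spag6l and Scube1 are 7 of the 30560 genes counted in nuclei of the rat nucleus accumbens, and each was singled out because its level was lower after cocaine in 1 class of medium spiny neuron (MSN). MSN are the GABAergic projection neurons of the striatum, and they divide into those that carry the dopamine receptor D1 and those that carry D2. Arhgef28, Znrf3 and Ccdc77 were taken from the contrast of cocaine with saline in D1-MSN, and Zmat4, Asic2, Spag6l and Scube1 from the same contrast in D2-MSN. The genes were chosen by their fold change and adjusted p in that contrast in earlier work on these data, so the fall of a gene in its own class is described here and not tested as a finding. The contrast in the other classes did not choose the gene and was tested.

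The animals were Sprague-Dawley rats of 90 to 120 days. Each was given 7 daily intraperitoneal injections of saline or of cocaine (20 mg/kg) with its movement tracked in an open field, and tissue was collected 1 hour after the final one. A 2 mm punch centred on the accumbens core was used, tissue of 4 rats was pooled for each library, and 16 rats gave 4 libraries. These are saline female, saline male, cocaine female and cocaine male, in which order values are given throughout. Each treatment therefore rests on 2 pools, 1 of each sex, and a rat's own value cannot be recovered from a pool.

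The 7 genes do unrelated work. Arhgef28 encodes a guanine nucleotide exchange factor that activates the small GTPase RhoA, a regulator of the actin cytoskeleton and so of spine and axon shape. Znrf3 encodes a transmembrane ubiquitin ligase that removes Frizzled and Lrp receptors from the cell surface, which lowers the response to Wnt ligands, and R-spondins bound to Lgr receptors clear Znrf3 in turn. Asic2 encodes a subunit of acid-sensing ion channels, the sodium-permeable channels that open when extracellular pH falls. Scube1 encodes a secreted and surface-bound protein with EGF-like and CUB domains. Spag6l encodes a protein of the axoneme's central apparatus in motile cilia and flagella. Zmat4 is a zinc finger protein of the matrin type and Ccdc77 a coiled-coil protein, and the role of neither in neurons is well established.

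In the count files the genes carry the identifiers ENSRNOG00000016544 (Arhgef28), ENSRNOG00000067305 (Znrf3), ENSRNOG00000037206 (Ccdc77), ENSRNOG00000042690 (Zmat4), ENSRNOG00000058308 (Asic2), ENSRNOG00000025787 (Spag6l) and ENSRNOG00000010617 (Scube1). RefSeq promoter sequence on build GRCr8 was found for 5 of the 7 genes, and 3 windows of 250 bases upstream of an annotated start are shown. The Spag6l window is shown because it held the only exact cyclic AMP response element (CRE, TGACGTCA) among the windows of the 5 genes. This element, on either strand, was found in 1.59% of 33469 RefSeq windows of the same length. In Spag6l its first base lay at -107 from the start, and it is printed in capitals. Both windows of Asic2 are shown because RefSeq gives this gene a pair of starts, and a UMI from the 3′ end of a transcript was not assigned to either. They differed in base composition, with 49.6% G and C in the first and 78.8% in the second. Exact matches to an AP-1 site (TGANTCA), a nuclear receptor half-site bound by the Nr4a family (AAAGGTCA) or an Egr site (GCGTGGGCG) were not found in any window of the 5 genes. These sites were held by 6.34%, 1.24% and 0.478% of all windows. No measurement here bears on binding at any of these sequences.
Spag6l, chr11:97677590-97677839, plus strand: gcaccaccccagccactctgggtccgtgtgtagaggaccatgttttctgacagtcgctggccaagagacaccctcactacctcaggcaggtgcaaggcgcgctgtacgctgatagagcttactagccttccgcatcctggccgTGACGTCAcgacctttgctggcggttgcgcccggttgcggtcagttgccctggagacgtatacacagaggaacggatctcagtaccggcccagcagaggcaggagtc
Asic2 first start, chr10:67438238-67438487, minus strand: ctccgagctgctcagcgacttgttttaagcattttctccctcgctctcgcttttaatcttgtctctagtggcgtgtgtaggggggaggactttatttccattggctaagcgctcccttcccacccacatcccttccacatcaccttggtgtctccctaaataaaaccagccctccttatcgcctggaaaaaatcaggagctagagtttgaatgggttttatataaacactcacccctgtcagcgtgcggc
Asic2 second start, chr10:66636062-66636311, minus strand: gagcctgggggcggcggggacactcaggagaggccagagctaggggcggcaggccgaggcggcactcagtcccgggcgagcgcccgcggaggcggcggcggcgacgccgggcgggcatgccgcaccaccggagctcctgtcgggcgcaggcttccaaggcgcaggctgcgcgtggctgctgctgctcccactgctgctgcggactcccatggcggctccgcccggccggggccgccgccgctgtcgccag

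After filtering, 24843 nuclei were kept, and markers named 13 classes. D1-MSN-like nuclei numbered 831, 1343, 1359 and 1344 by library, and D2-MSN-like nuclei 754, 967, 995 and 1112. Median UMIs per D1-MSN-like nucleus were 9974, 7310, 7853 and 6739, so that levels are given as CPM, which set each UMI count against the UMI total of the same class or cluster in that library, scaled by the TMM method unless called unscaled. The saline female library stood apart, with 0 nuclei in D1 sub-cluster 6 and 214 in cluster 5, against 433 to 592 in the other libraries. Glutamatergic-like nuclei, a type not native to the accumbens, numbered 30 and 49 in saline and 251 and 116 in cocaine, and their part in any result was not tested. Of the receptor genes, Drd1 stood at 106 unscaled CPM in the D1 class and 2.71 in the D2 class, and Drd2 at 5.48 and 806. Between 10 and 18 barcodes were shared by any 2 libraries, at most 0.282% of the smaller.

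Every one of the 7 genes had a negative log2 fold change in both MSN classes. In D1-MSN-like nuclei the 3 genes chosen there had both cocaine libraries below both saline libraries, and the other 4 overlapped. In D2-MSN-like nuclei all 7 had both cocaine libraries below both saline, a pattern shown by 16.8% of 13255 genes tested in D1 and 16.7% of 12729 in D2. By edgeR's quasi-likelihood test with sex as a covariate, 0 of 7 passed an adjusted p of 0.05 in either class, where 0.0302% of all genes passed in D1 and 0.00786% in D2. At an unadjusted p under 0.05 there were 3 of the 7 in D1 and 6 in D2, and 1068 of 13255 and 1089 of 12729 genes, and DESeq2 called 0 of the 7 in each. For a gene in the class that chose it, or in clusters and sub-clusters of that class, counts and p-values throughout are descriptions and nothing is read from them. The earlier clustering of the same files had called each gene in its class, and the 2 clusterings do not sum exactly the same nuclei. The median log2 fold change of the 7 was -0.50 in D1 and -0.57 in D2, beside 0.00 for all genes, a difference fixed by how they were chosen.

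**Figure D1:**
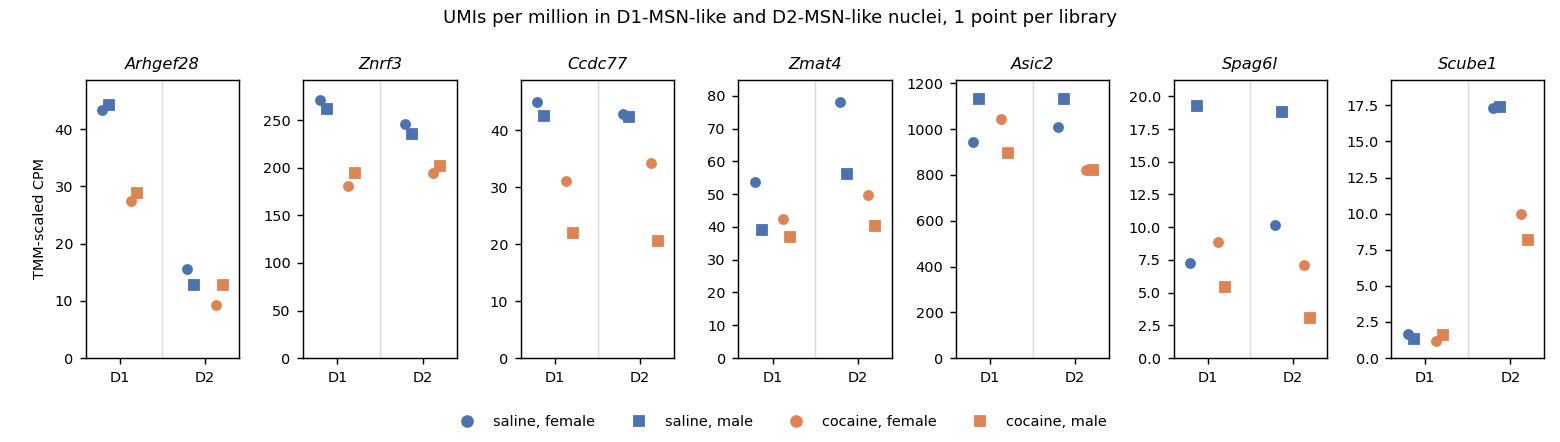
TMM-scaled CPM of the 7 genes (vertical axes, from 0) in the D1 and D2 classes of spiny neuron nuclei, with 1 point per library (circles female, squares male, blue saline, orange cocaine). Arhgef28, Znrf3 and Ccdc77 separate by treatment in D1, all 7 lie lower in both cocaine libraries in D2, and the Arhgef28 values of the male pair in D2 nearly touch.

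Arhgef28 stood at 43.4 and 44.2 CPM in the saline and at 27.5 and 28.9 CPM in the cocaine libraries of D1-MSN-like nuclei. The gap between the groups was wider than the distance between the 2 libraries within either. This contrast chose the gene, so nothing is read from that gap. The log2 fold change was -0.63 ± 0.09 (SE; adjusted p = 0.078, edgeR). In D2-MSN-like nuclei the gene was lower from the outset, at 15.5 and 12.8 CPM in saline and 9.22 and 12.8 CPM in cocaine, and the change of -0.37 ± 0.20 did not pass (adjusted p = 0.65, edgeR). The difference between the 2 classes' changes was 0.26 ± 0.18 (adjusted p = 0.84, edgeR with library as a block), so a fall particular to D1 was not shown. Of 22 other RhoA exchange factors and effectors tested in D1, edgeR called 0, beside 0.0302% of all genes, and DESeq2 called 0. By edgeR 4 had an unadjusted p under 0.05, 16 were negative and the median was -0.07. In D2 edgeR called 0 of 22, 0 had an unadjusted p under 0.05, 13 were negative and the median was -0.05.

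Within the D1 class the difference in Arhgef28 was spread over sub-clusters. All 5 D1 sub-clusters large enough to test were lower, from -0.39 ± 0.16 in sub-cluster 1, led by Htr4 and Nts, to -1.21 ± 0.25 in sub-cluster 3, led by Il1rapl2 and Kif28p. In sub-cluster 3 the values were 50.8 and 70.3 CPM in saline against 23.9 and 27.7 CPM in cocaine (adjusted p = 0.022, edgeR). In sub-cluster 0, led by Rgs6 and Ebf1 and the largest, they were 38.7 and 44.5 CPM against 23.4 and 31.0 CPM (log2 -0.62 ± 0.15, adjusted p = 0.049, edgeR). Changes within sub-clusters made up 96.1% of the class difference and a shift in their proportions 3.95%. Sub-cluster 5, led by the activity-induced genes Nr4a3, Fosb and Fos, held little of this transcript, with 2, 2, 7 and 5 UMIs (4.58, 4.96, 12.1 and 9.95 unscaled CPM). It was not tested, since the saline libraries had 39 and 46 nuclei there, under the minimum of 50. After each nucleus was thinned to 3000 UMIs, D1-MSN-like nuclei with at least 2 UMIs from 10 activity-induced genes held 4, 7, 1 and 3 Arhgef28 UMIs. That corresponds to 21.5, 35.4, 3.47 and 8.70 CPM, below the 41.7, 43.3, 27.1 and 34.4 CPM of nuclei with none of those UMIs in the same library.

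Arhgef28 was far higher in glia than in MSN. Its unscaled level was 754 ± 43.1 CPM in astrocyte-like, 494 ± 21.7 in oligodendrocyte precursor-like and 205 ± 5.35 in oligodendrocyte-like nuclei (SD, n = 4), and 778 microglia-like nuclei held 0 UMIs, which allows up to 2.66 CPM. The change was -0.16 ± 0.10 in astrocyte-like and -0.03 ± 0.10 in precursor-like nuclei, neither past the threshold (adjusted p = 0.69 and 0.99, edgeR). Glial markers were also summed in D1-MSN-like nuclei. The 7 astrocyte markers gave 13.6, 16.7, 19.01 and 19.5 CPM, none of them at 0, higher in both cocaine libraries, and the 5 precursor markers gave 6.006, 8.64, 8.80 and 9.81 CPM. Their part in the result was not tested.

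**Figure D2:**
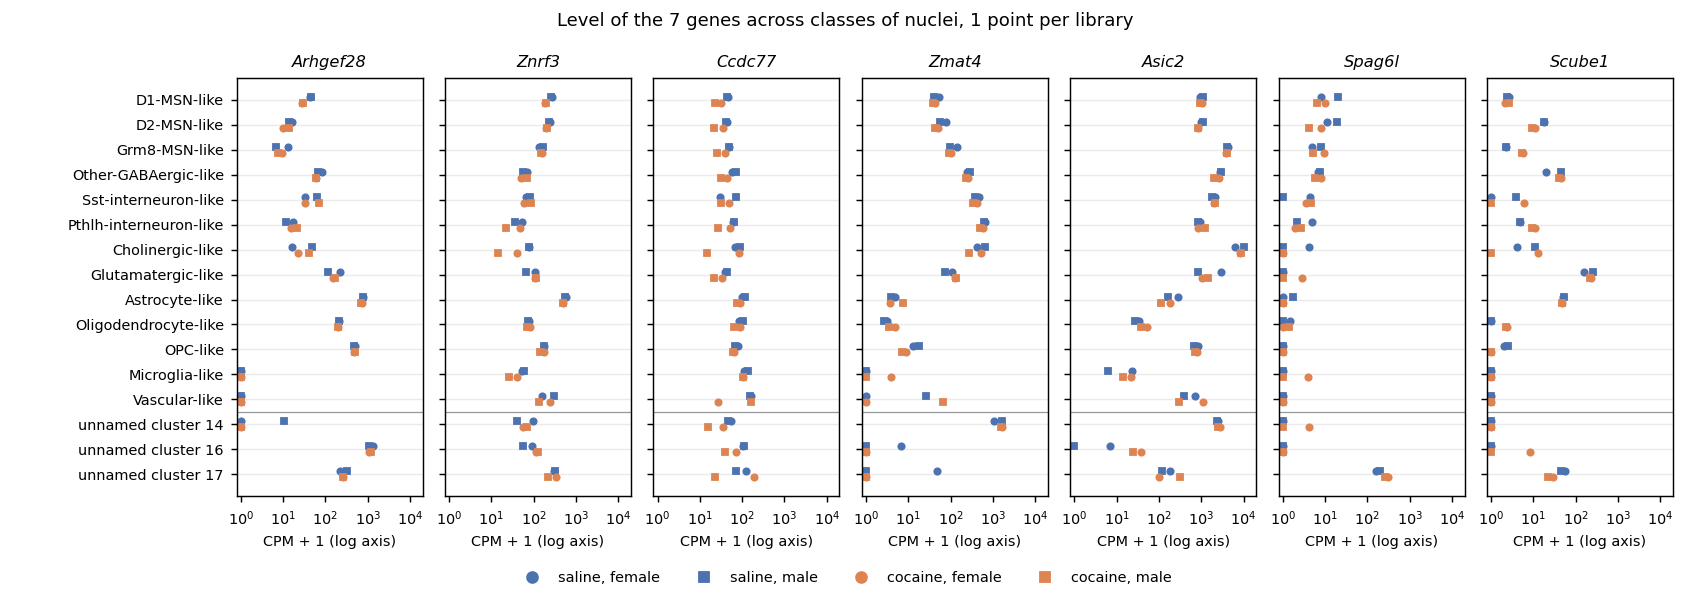
Unscaled CPM plus 1 (horizontal, log axis) of each gene in 13 named classes and 3 unnamed clusters (rows), 1 point per library. Arhgef28 peaks in glia, Asic2 in neurons, Zmat4 in interneurons and cluster 14, Spag6l in cluster 17 and Scube1 in glutamatergic-like nuclei.

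Znrf3 had a log2 fold change of -0.50 ± 0.07 in D1-MSN-like nuclei. The libraries stood at 272 and 262 CPM in saline and at 181 and 195 CPM in cocaine, with no overlap (adjusted p = 0.078, edgeR). Sub-clusters 0, 1 and 3 held 28.6%, 26.4% and 21.5% of the difference. Both D1 clusters were lower. Cluster 2, led by Ebf1 and Reln, went from 275 and 241 CPM to 165 and 183 CPM (log2 -0.57 ± 0.08, adjusted p = 0.0019, edgeR). Cluster 5, led by Htr4, went from 261 and 291 CPM to 207 and 220 CPM (log2 -0.37 ± 0.10, adjusted p = 0.038, edgeR), the 1 gene of 6 to pass there beside 1.15% of 11895 genes. The change differed between the clusters by 0.20 ± 0.12, which did not pass (adjusted p = 0.999, edgeR with library as a block).

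In the D2 class, which did not choose Znrf3, the values were 246 and 236 CPM in saline and 195 and 202 CPM in cocaine. Both cocaine libraries were below both saline libraries by more than the spread within each group, yet the change of -0.28 ± 0.07 did not pass after adjustment (adjusted p = 0.34, edgeR). A single D2 sub-cluster held 50.2% of the difference. D2 sub-cluster 1, led by Reln, Kif28p and Nr4a3, fell from 331 and 345 CPM to 235 and 230 CPM (log2 -0.54 ± 0.11, adjusted p = 0.00094, edgeR). There 4 of 6 genes of the set that could be tested passed, beside 0.823% of 9477 genes, and nothing is read from this count, since the D2 class that holds these nuclei chose 3 of the 4 (Asic2, Spag6l and Zmat4). Sub-clusters 0 and 5 stood at -0.26 and -0.44 without passing, and sub-clusters 2, 3 and 4 at -0.09, 0.10 and -0.14. No gene of the set passed in sub-clusters 2 and 4, where 0.135% and 0.234% of genes did. In Grm8-MSN-like nuclei, a separate spiny class led by Chst9 and Grm8, the 4 libraries overlapped (136, 165, 152 and 143 CPM, log2 -0.02 ± 0.11). Astrocyte-like nuclei, where the unscaled level was highest at 524 ± 43.8 CPM (SD, n = 4), gave -0.22 ± 0.11 (adjusted p = 0.48, edgeR).

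Znrf3 itself did not pass in D1 (adjusted p = 0.078, edgeR). Of 19 other listed genes of the R-spondin, Lgr, Frizzled and Lrp group, 7 could be tested in D1-MSN-like nuclei. By edgeR 0 of these passed in either direction, beside 0.0302% of all genes, 1 had an unadjusted p under 0.05, DESeq2 called 0, 3 were negative and the median was 0.01, beside 0.00 for all genes. Rnf43, the closest relative of Znrf3, stood at 26.8, 23.5, 26.2 and 22.8 CPM (log2 -0.04 ± 0.11). Lgr4, a receptor for R-spondins, stood at -0.20 ± 0.09 (adjusted p = 0.61, edgeR) and Lrp6, a Wnt co-receptor that Znrf3 targets, at 0.07 ± 0.07. In the D2 class 0 of the same 7 passed, beside 0.00786% of all genes, 1 had an unadjusted p under 0.05, DESeq2 called 0 and the median was -0.03. In the intracellular Wnt relay edgeR called 0 of 11 genes in D1 and 0 of 10 in D2, with 0 at an unadjusted p under 0.05 and 0 by DESeq2 in each. Axin2, a target gene and brake of that relay, was at a low level in D1, at 3.75, 2.77, 2.83 and 3.01 CPM.

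Ccdc77 stood at a log2 fold change of -0.73 ± 0.12 in D1-MSN-like nuclei (adjusted p = 0.082, edgeR). Its values were 44.9 and 42.5 CPM in saline and 31.0 and 22.0 CPM in cocaine, the cocaine male library being the lowest. The lower values were not limited to spiny neurons. The estimate was negative in all 10 other classes tested, from -0.24 in microglia-like to -0.79 in other GABAergic-like nuclei, and both cocaine libraries lay below both saline libraries in 9 of the 10, where between 15.4% and 18.9% of genes did so in the classes other than D1 and D2. It passed in Grm8-MSN-like nuclei (46.8 and 48.2 CPM to 39.2 and 24.7 CPM, log2 -0.57 ± 0.16, adjusted p = 0.049, edgeR), where 0.842% of 11518 genes passed. In that class edgeR placed every gene on 1 trend of spread, on which the p-value rests. The gene did not pass in the other 9. The share of genes that passed there was 2.35% in Pthlh-interneuron-like, 0.819% in oligodendrocyte-like, 0.441% in Sst-interneuron-like, 0.127% in microglia-like, 0.0236% in oligodendrocyte precursor-like and 0.0165% in other GABAergic-like nuclei. In D2-MSN-like nuclei the values were 42.8 and 42.3 CPM against 34.2 and 20.5 CPM (log2 -0.65 ± 0.15, adjusted p = 0.34, edgeR). The cocaine male library was the lowest of the 4 in all 10 classes and in D1-MSN-like nuclei too. Without it the change was -0.50 in D1, -0.31 in D2 and -0.28 in Grm8-MSN-like nuclei, and what sets that library apart was not tested. The Grm8-MSN call was lost without any 1 of the 4 libraries, with DESeq2 and without the sex covariate.

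The highest unscaled level of Ccdc77 in a class tested was in microglia-like nuclei, at 114 ± 17.4 CPM (SD, n = 4), and D1-MSN-like nuclei stood at 35.0 ± 10.3 CPM. The RefSeq models of Ccdc77 and its neighbour Kdm5a overlap by 112 bases, and the sources used here do not say how reads of overlapping genes were counted. Kdm5a, looked up after the Ccdc77 values were seen, stood at 127, 125, 131 and 121 CPM in D1-MSN-like nuclei (log2 0.00 ± 0.07). Of 15 other genes of the centriole and centrosome, where coiled-coil proteins are common, edgeR called 0 in D1, 2 had an unadjusted p under 0.05, DESeq2 called 0 and the median was -0.04. In D2 edgeR called 0 of 14, 2 had an unadjusted p under 0.05, DESeq2 called 0 and the median was -0.02.

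**Figure D3:**
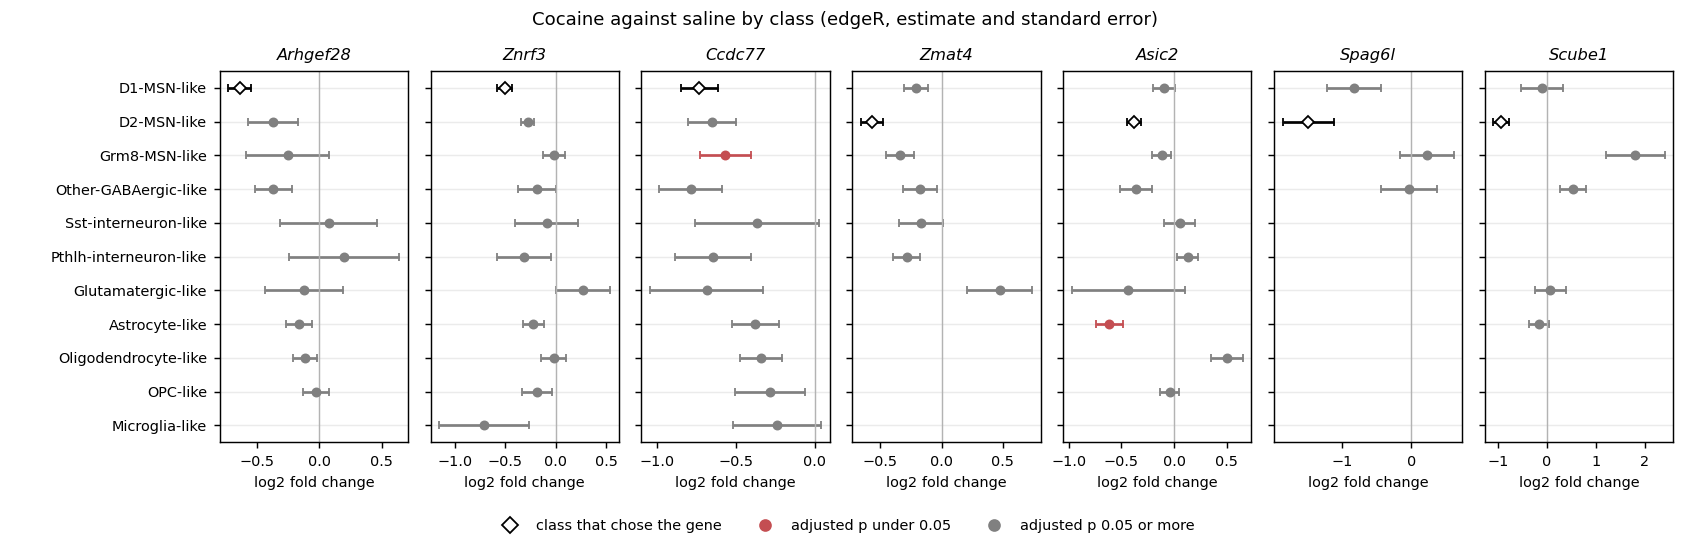
Log2 fold change of cocaine against saline (horizontal, edgeR estimate with bars of 1 SE) for each gene in the classes where it could be tested. Open diamonds mark the class that chose the gene, red points an adjusted p under 0.05 elsewhere (Ccdc77 in Grm8-MSN-like and Asic2 in astrocyte-like nuclei) and grey points the rest. Ccdc77 is negative in every row.

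Zmat4 showed a log2 fold change of -0.57 ± 0.09 in D2-MSN-like nuclei (adjusted p = 0.15, edgeR). The libraries stood at 78.1 and 56.1 CPM in saline and at 49.6 and 40.4 CPM in cocaine. Each cocaine library was below its saline partner of the same sex, and the female libraries were above the male ones in both treatments. A pair of sub-clusters held most of the difference. D2 sub-cluster 1 went from 109 and 69.9 CPM to 51.8 and 40.7 CPM (log2 -0.95 ± 0.18, adjusted p = 6.5e-05, edgeR) and held 37.9% of the class difference. D2 sub-cluster 3, led by Plcz1 and Ntng2, went from 168 and 93.3 CPM to 75.9 and 51.7 CPM (log2 -0.999 ± 0.21, adjusted p = 0.0023, edgeR) and held 31.9%. In sub-cluster 3, 2 of 4 genes of the set passed, beside 0.382% of 8376 genes. D2 sub-cluster 2, led by Erbb4 and Nrp2, stood at -0.13 ± 0.20 and held 3.97% of the difference.

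In the D1 class Zmat4 changed by -0.21 ± 0.10 (adjusted p = 0.64, edgeR), on values of 53.6, 38.9, 42.4 and 37.1 CPM that overlapped. The D2 change minus the D1 change was -0.36 ± 0.11 (adjusted p = 0.29, edgeR with library as a block). The gene was more abundant in interneurons than in MSN. Its unscaled level was 581 ± 65.2 CPM in Pthlh-interneuron-like, 401 ± 57.5 in Sst-interneuron-like and 55.8 ± 15.2 in D2-MSN-like nuclei (SD, n = 4). Pthlh-interneuron-like nuclei gave -0.29 ± 0.11 (adjusted p = 0.22, edgeR) and Grm8-MSN-like nuclei -0.34 ± 0.12 (adjusted p = 0.19, edgeR). Of its family, Zmat3, a target of p53, stood at -0.43 ± 0.11 in D2-MSN-like nuclei (adjusted p = 0.42, edgeR) and at 0.03 ± 0.10 in D1. Zmat1 stood at -0.11 ± 0.12 and -0.01 ± 0.09. Of 3 other family members tested in D2, edgeR called 0, beside 0.00786% of all genes, and DESeq2 called 0. By edgeR 2 had an unadjusted p under 0.05, 3 were negative and the median was -0.36. In D1 edgeR called 0 of 3, 0 had an unadjusted p under 0.05, 2 were negative and the median was -0.01.

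Asic2 was at 1010 and 1132 CPM in the saline and 823 and 822 CPM in the cocaine libraries of D2-MSN-like nuclei. The cocaine libraries were nearly equal and both below saline, and the log2 fold change was -0.38 ± 0.07 (adjusted p = 0.16, edgeR). Part of this was a change in which nuclei made up the class. Cluster 13, a D2 cluster led by Drd2 and Casz1, held 3860 ± 333 unscaled CPM, and cluster 1, the main D2 cluster, 647 ± 84.1 (SD, n = 4). Shifts between sub-clusters made up 30.7% of the class difference, and with sub-clusters in equal numbers per library the change was -0.28. Within sub-clusters, D2 sub-cluster 1 fell from 672 and 697 CPM to 576 and 419 CPM (log2 -0.47 ± 0.10, adjusted p = 0.00088, edgeR). D2 sub-cluster 0, led by Rgs6 and Pde1a, fell from 519 and 631 CPM to 460 and 434 CPM (log2 -0.36 ± 0.07, adjusted p = 0.0028, edgeR), where 2 of 6 genes of the set and 0.172% of 11015 genes passed. D2 sub-cluster 5, led by Itgb6 and Sema3e, fell by 0.62 ± 0.14 (adjusted p = 0.0049, edgeR), where Asic2 was the 1 gene of 5 to pass, beside 0.773% of 7762 genes.

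In the D1 class as a whole Asic2 did not pass and the libraries overlapped, at 946, 1133, 1045 and 895 CPM (log2 -0.10 ± 0.11, adjusted p = 0.84, edgeR). Estimates varied between its sub-clusters, and a difference between sub-clusters was not tested. D1 sub-cluster 2, led by Ptpn13 and Tll1, fell from 834 and 758 CPM to 521 and 601 CPM (log2 -0.50 ± 0.10, adjusted p = 0.032, edgeR), the 1 gene of 5 to pass beside 0.104% of 9638 genes. D1 sub-cluster 3 fell from 1073 and 1583 CPM to 944 and 599 CPM (log2 -0.78 ± 0.14, adjusted p = 0.0054, edgeR), where 4 of 6 genes of the set passed beside 0.101% of 8911 genes. In sub-cluster 1 the change was -0.11 ± 0.09, and cluster 5, which contains nearly all of it, stood at 0.09 ± 0.11. Cluster 5 also contains D1 sub-cluster 6, which had 0 saline female nuclei. Asic2 there stood at 2453 unscaled CPM in saline male, 2677 in cocaine female and 3154 in cocaine male, and its part was not tested. The change in cluster 5 minus that in cluster 2 was 0.40 ± 0.10, which did not pass (adjusted p = 0.18, edgeR with library as a block). The D2 change minus the D1 change was -0.29 ± 0.06 on the log2 scale, and 0.106% of 13248 genes passed the test of this difference. Since the D2 contrast chose the gene, it is a description and nothing is read from it. Changes in sub-cluster proportions added 71.6 CPM in D1 and -67.7 CPM in D2, while the changes within sub-clusters came to -124.9 and -152.8 CPM. The D1 split includes sub-cluster 6, which held 8.46% of the D1 UMIs of Asic2. For the female pair its missing saline value was set equal to the cocaine one, so all of its part counted as a proportion change. The 71.6 CPM therefore rests in part on nuclei missing from the saline female library. In D1 sub-clusters 1 and 4, 0 of 6 and 0 of 5 genes of the set passed by edgeR, with 4 and 2 at an unadjusted p under 0.05, beside 0% and 0.0819% of all genes.

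Outside MSN, Asic2 passed in astrocyte-like nuclei, at 282 and 165 CPM in saline and 182 and 109 CPM in cocaine (log2 -0.62 ± 0.13, adjusted p = 0.00039, edgeR). The groups overlapped, since the saline male library lay below the cocaine female one, and 1.36% of 10345 genes passed in this class. Every gene was placed by edgeR on 1 trend of spread in these nuclei, and the p-value rests on that trend. Leaving out the saline female library gave -0.16 and leaving out the cocaine male one -0.30, neither of which passed, and the call was lost also without the cocaine female library (-1.05), with DESeq2 and without the sex covariate. The 9 MSN markers summed to 1247 and 1113 CPM in saline and 1575 and 1493 CPM in cocaine in these nuclei, and their part in the result was not tested. Oligodendrocyte-like nuclei were higher in cocaine, at 34.4 and 26.5 CPM against 49.6 and 36.4 CPM, which did not pass (log2 0.50 ± 0.15, adjusted p = 0.15, edgeR). Asic1, which joins Asic2 in mixed channels, stood at 64.9, 64.7, 57.0 and 63.8 CPM in D2-MSN-like nuclei (log2 -0.10 ± 0.09, adjusted p = 0.77, edgeR). Of 7 other listed acid-sensing and epithelial sodium channel subunits 3 could be tested in D2, where edgeR called 0, 0 had an unadjusted p under 0.05 and DESeq2 called 0. RefSeq models of 2 protein-coding genes, Rpl35al3 and an unnamed locus, overlap that of Asic2, so part of its UMIs may have been counted or dropped with theirs.

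Spag6l was a rare transcript with the widest swings. D2-MSN-like nuclei held 76 and 132 UMIs in saline and 56 and 24 in cocaine, that is 10.1 and 18.8 CPM against 7.07 and 3.07 CPM (log2 -1.48 ± 0.37, adjusted p = 0.38, edgeR). The male pair differed by -2.62 and the female pair by -0.52 on the log2 scale, so the size rests largely on the male libraries. Without the saline male library the change was -0.995 and without the cocaine male library -1.02. In D1-MSN-like nuclei the UMIs were 62, 202, 100 and 54, the female pair stood at 0.28 and the male pair at -1.83, and the groups overlapped (log2 -0.83 ± 0.38, adjusted p = 0.64, edgeR). Without the saline male library this became -0.02.

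The 2 D1 clusters differed in Spag6l. Cluster 2 went from 6.67 and 23.5 CPM to 4.97 and 1.69 CPM, on 42, 134, 33 and 11 UMIs (log2 -2.05 ± 0.42, adjusted p = 0.023, edgeR), where 4 of 6 genes of the set and 0.66% of 12430 genes passed. Cluster 5 stood at 8.89 and 14.4 CPM in saline and at 14.4 and 12.6 CPM in cocaine, on 20, 68, 67 and 43 UMIs (log2 0.17 ± 0.25, adjusted p = 0.96, edgeR). D1 sub-cluster 6, all of it in cluster 5 and without saline female nuclei, held 0, 5, 13 and 14 of these UMIs. Its part in the result was not tested. The change in cluster 5 minus that in cluster 2 was 2.42 ± 0.39 on the log2 scale (adjusted p = 0.0069, edgeR with library as a block), where 0.119% of 12625 genes passed. The D1 contrasts had not chosen Spag6l, but this comparison was added after values were seen. Leaving out 1 library kept its direction, at 1.60 to 3.29, and without the saline male or the cocaine male library it did not pass (1.60 and 1.95). D1 sub-cluster 3, a part of cluster 2, held the sharpest fall, from 19 and 36 UMIs to 2 and 2, or from 15.6 and 37.8 CPM to 1.77 and 2.06 CPM (log2 -3.67 ± 0.55, adjusted p = 0.00059, edgeR). The saline nuclei of that sub-cluster numbered 110 and 115 and the cocaine nuclei 130 and 121.

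Cluster 1 of D2 held Spag6l at 9.90 and 19.1 CPM in saline against 6.52 and 2.54 CPM (log2 -1.63 ± 0.31, adjusted p = 0.018, edgeR), where 3 of 7 genes of the set and 0.2% of 12530 genes passed. Cluster 13 gave -0.43 ± 0.54 (adjusted p = 0.92, edgeR), and cluster 13 minus cluster 1 was 1.31 ± 0.58 (adjusted p = 0.93, edgeR with library as a block), so a difference between them was not shown. D2 sub-clusters 0 and 1 held 44.9% and 29.1% of the class difference. In sub-cluster 0 the UMIs were 21 and 50 in saline and 17 and 0 in cocaine. Outside D1 and D2, Grm8-MSN-like nuclei gave 0.22 ± 0.39 and other GABAergic-like nuclei -0.03 ± 0.40.

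Spag6l was at the edge of detection in glia, with 1 UMI in 1731 astrocyte-like nuclei and 3 in 6655 oligodendrocyte-like nuclei. The share of astrocyte-like nuclei with a UMI was 0.0578% at a median depth of 3082 UMIs. Its highest level was in cluster 17, a group of 116 nuclei that was given no name and is led by the axonemal dynein genes Dnah7 and Dnah12 and by Cfap299. There the unscaled level was 163, 203, 315 and 257 CPM, on 21, 14, 22 and 12 UMIs. Of 23 other axoneme genes with a symbol, 12 could be tested in D2-MSN-like nuclei, where edgeR called 0, 0 had an unadjusted p under 0.05, DESeq2 called 0, 10 were negative and the median was -0.22. In D1 edgeR called 0 of 13, 2 had an unadjusted p under 0.05, DESeq2 called 0 and the median was -0.06. Spag6, a close paralog counted as a separate gene, had too few UMIs to test, and reads that match both copies may have been split or dropped, so the values of Spag6l are uncertain.

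**Figure D4:**
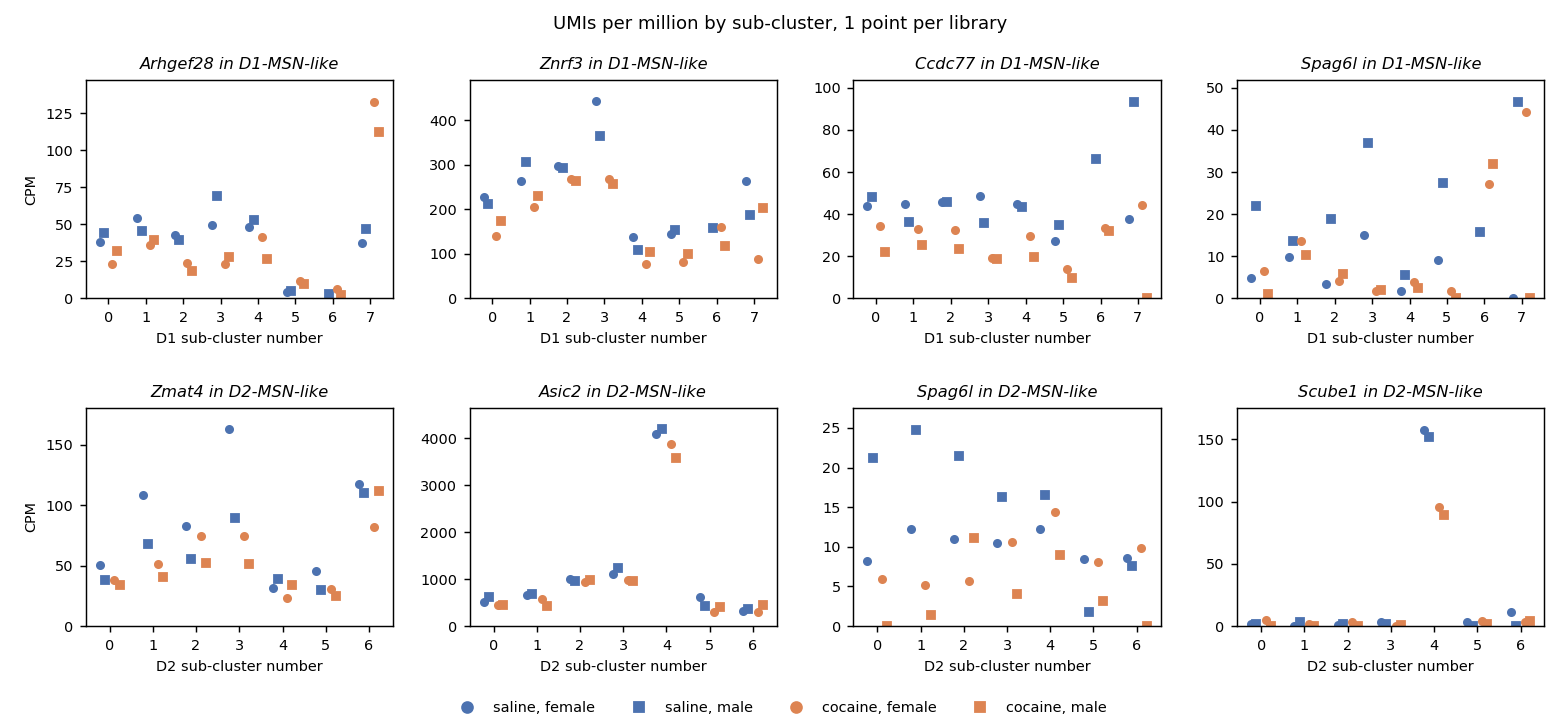
Unscaled CPM (vertical axes, from 0) by numbered sub-cluster of D1-MSN-like nuclei (upper row) and D2-MSN-like nuclei (lower row), 1 point per library. Arhgef28 is lower in cocaine in D1 sub-clusters 0 to 4, Spag6l is near 0 in both cocaine libraries of D1 sub-cluster 3 and level in sub-cluster 1, and 85.8% of the D2 UMIs of Scube1 lie in sub-cluster 4. D1 sub-cluster 6 has no saline female point and sub-cluster 7 has few UMIs.

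Scube1 was concentrated in 1 D2 sub-cluster. Over the whole D2 class it was at 17.4 CPM in both saline libraries and at 9.98 and 8.19 CPM in cocaine, with no overlap (log2 -0.93 ± 0.16, adjusted p = 0.16, edgeR). With nuclei gated directly on marker UMIs the direction turned, at 0.09. D2 sub-cluster 4, which is nearly the same set of nuclei as cluster 13, held 85.8% of the UMIs of this gene and 8.9% of all UMIs of the class. There the values were 162 and 158 CPM in saline and 97.6 and 90.8 CPM in cocaine (log2 -0.77 ± 0.18, adjusted p = 0.073, edgeR). Cluster 13 itself gave 164 and 146 CPM against 97.4 and 85.4 CPM, on 114, 110, 53 and 61 UMIs (log2 -0.76 ± 0.18, adjusted p = 0.028, edgeR), where 1 of 6 genes of the set and 0.316% of 8234 genes passed. Cluster 1, with 16, 12, 26 and 3 UMIs, was near background and gave -0.17 ± 0.49. Scube1 was among the leading genes of both groupings, although it was kept out of the genes used for clustering. A shift in sub-cluster proportions made up 30.5% of the class difference, and with sub-clusters in equal numbers the change was -0.68.

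In other classes Scube1 went other ways. Grm8-MSN-like nuclei held 4, 4, 15 and 12 UMIs, or 1.24, 1.30, 4.63 and 4.43 CPM, so that both cocaine libraries were higher (log2 1.81 ± 0.60), and this did not pass (adjusted p = 0.14, edgeR). Glutamatergic-like nuclei, which held the highest unscaled level at 212 ± 43.0 CPM (SD, n = 4), gave 0.07 ± 0.31. The 7 glutamatergic markers, 2 of them at 0, summed to 1.24, 1.26, 2.15 and 1.49 CPM in Grm8-MSN-like nuclei, higher in both cocaine libraries as well, and the part of free RNA in this difference was not tested. D1-MSN-like nuclei were at 1.64, 1.34, 1.15 and 1.61 CPM, and 778 microglia-like nuclei held 0 UMIs, which allows up to 2.66 CPM. Scube2, of the same family, stood at 37.1, 31.3, 29.4 and 28.1 CPM in D2-MSN-like nuclei (log2 -0.25 ± 0.11, adjusted p = 0.57, edgeR), and Scube3 at 0.04 ± 0.32.

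Whether fewer nuclei held a transcript or each held less was asked by splitting the ratio of mean UMIs into the share of nuclei with a UMI and the UMIs per nucleus with a UMI. For the sparse genes most of the fall was in the share. After thinning to 3000 UMIs per nucleus, which left out 1.56% to 3.87% of D1-MSN-like nuclei per library, Ccdc77 was seen in 13.3% and 10.7% of saline and in 10.2% and 6.66% of cocaine nuclei. Detection made up 86.8% of its log2 fall in the female and 98.3% in the male pair. Saline nuclei with a Ccdc77 UMI held 1.10 and 1.11 on average, so the UMIs per positive nucleus had little room to fall. Arhgef28 was seen in 10.3% and 10.97% of saline and 7.14% and 7.82% of cocaine nuclei, with 87.8% of the log2 fall in detection in the female pair. Before thinning those shares were 27.1% and 23.5% in saline and 17.3% and 15.8% in cocaine. Had every saline nucleus lost UMIs in proportion, thinned shares of 7.04% and 8.16% would be met for Arhgef28 and 10.0% and 6.87% for Ccdc77. These are close to the shares measured, so the split does not separate silent nuclei from uniformly lower ones. As a background, 0% of 778 microglia-like nuclei held an Arhgef28 UMI at a median of 1346 UMIs.

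Both parts were lower for Znrf3 and Asic2. Znrf3 was seen in 48.8% and 47.05% of thinned saline and 38.1% and 38.3% of thinned cocaine D1-MSN-like nuclei, and its UMIs per positive nucleus went from 1.68 to 1.45 in the female and from 1.59 to 1.46 in the male pair. The shares expected from a proportional loss were 38.1% and 38.9%. The part of its difference in detection depended on depth, at 62.4% and 69.9% of the log2 ratio after thinning to 3000 UMIs, 49.6% and 53.0% at 5000 UMIs and 34.2% and 40.1% unthinned. Asic2 in D2-MSN-like nuclei went from 66.7% and 73.7% to 64.0% and 63.9%, with UMIs per positive nucleus falling from 4.37 to 3.76 and from 4.498 to 3.75. Microglia-like nuclei held an Asic2 UMI in 2.44%. Its level part was the larger in both pairs. A proportional loss would give 63.2% in the female and 67.4% in the male pair. The measured share was slightly above that value in the female pair and below it in the male pair. Zmat4 was mixed at 3000 UMIs, since 94.5% of its fall was in detection in the female pair and 17.8% in the male pair. These shares depended on depth, at 69.9% and 44.5% after thinning to 5000 UMIs and 64.7% and 42.3% unthinned. Spag6l was seen in 2.27% and 4.498% of saline and in 1.72% and 1.20% of cocaine D2-MSN-like nuclei, nearly always as a single UMI, so its level part could not move. Scube1 went from 2.94% and 3.24% to 1.82% and 1.75%, with 78.6% and 93.7% of the log2 ratio in detection. That share depended on depth in the female pair, at 36.3% after thinning to 5000 UMIs and 44.5% unthinned. Shifts in sub-cluster proportions made up 30.7% and 30.5% of the D2 class differences of Asic2 and Scube1. Their part in the detection and level values was not tested.

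**Figure D5:**
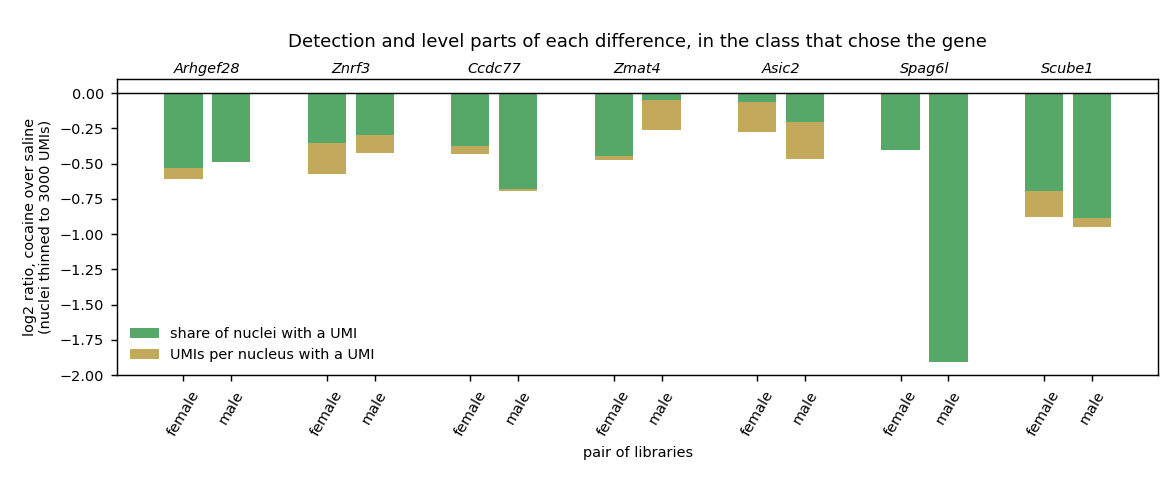
Log2 ratio of mean UMIs per nucleus, cocaine over saline, in the class that chose each gene after thinning to 3000 UMIs, stacked as the part from the share of nuclei with a UMI (green) and the part from UMIs per nucleus with a UMI (ochre), for the female and male pair. At this depth the green part is the larger for Arhgef28, Znrf3, Ccdc77, Spag6l and Scube1, and the ochre part for Asic2 and for Zmat4 in the male pair.

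Over all 61 tests of a gene in a sub-cluster, 59 estimates were negative and 17 passed, all of them lower. Of all genes tested, 49.2% to 50.7% were negative and 0% to 0.823% passed, by sub-cluster. The counts pool tests in the class that chose the gene with tests in the other class. Most of these tests are of nuclei that chose the genes, so the direction is no separate finding. Calls within sub-clusters and clusters depended on the model: all 26 kept their direction but were lost with DESeq2 and also without the sex covariate. The saline female, saline male, cocaine female and cocaine male libraries, each left out in turn, ended 13, 12, 16 and 23 of them. In several of these units edgeR placed every gene on 1 trend of spread, on which the small p-values rest. Across the 52 tests in classes that had not chosen the gene, 41 estimates were negative and 2 passed. In both classes with a call, edgeR likewise placed every gene on 1 trend. Over all genes tested, 48.6% to 50.5% were negative and 0% to 2.35% passed, by class. These tests share the same 4 libraries and are not independent of each other.

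Genes whose levels followed each of the 7 most closely were sought over 44 sums of 11 classes by 4 libraries, among 10487 genes. The points share libraries and depth, and the correlations are descriptions. Arhgef28 was most like Adamts20 (Pearson r = 0.91), Ptn and Asrgl1, and Znrf3 most like Frem2 (r = 0.83), Ca12 and Stox2. Ccdc77 followed Bicra (r = 0.86), Nfatc3 and Wrn, while Zmat4 followed Rhbdl1 (r = 0.95), Vsnl1 and Disp2. For Asic2 the nearest were Tmem266 (r = 0.96), Rims2 and Plppr2. For Spag6l they were Mme (r = 0.89), Gnal and Htr4, and for Scube1 Mical2 (r = 0.80), Rgs6 and Gtf2ird1.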

How the data were processed

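UMI counts per gene and nucleus, whole numbers and not normalized, were deposited by the authors for 4 libraries and made with Cell Ranger 6.1.2, per the file headers. The build was rn7, per the submitters' processing notes, and how introns, strand and overlapping genes were handled is not given in the sources used here. The 7 genes, the gene lists and the markers were chosen with earlier results of these data known. The text names the 7 genes, list members that passed in D1 or D2, close family members, and the 3 genes most like each by Pearson correlation of log2(CPM + 1), over genes with at least 500 UMIs. Kdm5a and Lrp6 were named after values were seen.

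Nuclei were kept from 200 detected genes upward when mitochondrial UMIs were 5% or less. Of 26228 barcodes 4 failed, and 1381 were removed as doublets by Scrublet score at 0.8% per 1000 nuclei. Total UMIs per library were 31484217 to 40737786. Nuclei were clustered in scanpy 1.11.5 (2000 variable genes without the 7 genes and immediate-early genes, 30 components, 15 neighbours, Leiden resolution 0.5, leidenalg 0.10.2) into 23 clusters, of which 6 with 691 nuclei stayed unnamed and untested. The limits for naming a cluster date from after the data were examined. Both spiny neuron classes were sub-clustered at resolution 0.4. Clusters are numbered separately from sub-clusters.

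UMIs were summed per library and class, at least 25 nuclei per library (50 for sub-clusters). The test was edgeR 4.0.16 in R 4.3.3 (TMM, filterByExpr, quasi-likelihood, sex as covariate, Benjamini-Hochberg within class at 0.05), checked on simulated counts. Sex pairs the libraries by design, as labels give 1 female and 1 male pool per treatment. SE is the log2 fold change over the root of F. Prior degrees of freedom were 7.86 in D1, 8.82 in D2 and infinite in Grm8-MSN-like and astrocyte-like nuclei among others, with 1 residual. The D1 to D2 and cluster to cluster differences were fitted with library as a block. Intervals and floors (3 counts) cover counting error only. With sex in the model, p-values rest on how far the female and male changes differ, and mostly on spread shared across genes. They do not measure the spread between the 2 pools of a group. Alternatives were DESeq2 1.42.0, RLE factors, no low-count filter, no sex term, no doublet removal, a direct marker gate, thinning, equal sub-cluster mix and each library left out.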

Additional observations from a re-analysis of the deposited data

Results flagged for a closer look

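The cocaine change in Spag6l differed between the 2 D1 clusters by a test of the difference itself. In cluster 5 minus cluster 2 it was 2.42 on the log2 scale (adjusted p = 0.0069, edgeR with library as a block). The comparison was added after values were seen, and with 1 library left out the difference ranged from 1.60 to 3.29. D1 sub-cluster 6, with 0 saline female nuclei, lies in cluster 5, and its part in the difference was not tested. For Asic2 the D2 change minus the D1 change was -0.29, which is a description, since the D2 contrast chose the gene. Within sub-clusters the difference was -124.9 CPM in D1 and -152.8 CPM in D2, and changes in sub-cluster proportions added 71.6 CPM in D1 and -67.7 CPM in D2. The 71.6 CPM rests in part on D1 sub-cluster 6, which the saline female library lacked.

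In 3 cases both cocaine libraries were higher in 1 class while both were lower in D2-MSN-like nuclei, and the difference between the classes was not tested. They are Zmat4 in glutamatergic-like nuclei (log2 0.47), Asic2 in oligodendrocyte-like nuclei (log2 0.50) and Scube1 in Grm8-MSN-like nuclei (log2 1.81).

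A pair of clusters that received no name and entered no comparison held more than 2 times the level of a gene in the highest named class. Zmat4 averaged 1488 unscaled CPM in cluster 14, led by Stac and Drd3, on 1065, 1633, 1684 and 1568 CPM by library. Spag6l averaged 235 unscaled CPM in cluster 17, led by Smoc2 and axonemal genes. The highest named classes stood at 581 unscaled CPM for Zmat4 and 10.2 for Spag6l. By less than that, Arhgef28 was higher in unnamed cluster 16 (147 nuclei), at 1178 against 754 unscaled CPM in astrocyte-like nuclei, and Ccdc77 in unnamed cluster 22 (14 nuclei), at 172 against 124 in vascular-like nuclei.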

How the results depend on the processing

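The 7 genes kept their direction in D1 and D2 in 172 of 180 results under alternatives, and 61 passed the threshold there; the cause was not tested. These results include each gene in the class that chose it, refitted on the same libraries, so nothing is read from either count. For all genes, the counts called under the same alternatives are as follows. With no replicate block, that is without sex as the pairing term, edgeR called 0 genes in D1 and 1 in D2. The count of genes called in D1 (4) and D2 (1) became 25 and 19 with RLE factors, 159 and 114 with no low-count filter, 65 and 45 with no doublet removal, 74 and 208 with direct gating, 13 and 48 after thinning and 78 and 108 with equal sub-cluster numbers. D1 had 26 without D1 sub-clusters 6 and 7, chosen after seeing the data. Leaving out 1 library gave 0 to 250 in D1 and 3 to 93 in D2. Grm8-MSN-like nuclei (97) had 0 with DESeq2, 3 without the sex term and 25 to 328 with 1 library left out, and astrocyte-like nuclei (141) had 1, 2 and 9 to 59.

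Directions turned for Scube1 in D1 with no doublet removal (0.0606) and gating (0.70), and in D2 with gating (0.0889). With 1 library left out, ranges crossing 0 were, in D1, Scube1 -0.36 to 0.11, Asic2 -0.22 to 0.0364 and Zmat4 -0.43 to 0.0300. In Grm8-MSN-like nuclei they were Arhgef28 -0.68 to 0.40, Znrf3 -0.16 to 0.12 and Spag6l -0.45 to 0.68, and elsewhere Arhgef28 in oligodendrocyte precursor-like -0.10 to 0.0527, Ccdc77 in Sst-interneuron-like -0.88 to 0.38 and Scube1 in glutamatergic-like nuclei -0.33 to 0.50. In these fits a lone library is assumed to vary like the others. The genes with the fewest UMIs, Spag6l and Scube1, carry the widest errors.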
